A study of Pyrus x bretschneideri with 2 samples.

Results

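Patatins are lipid acyl hydrolases, named after the storage glycoprotein of potato tubers that cuts fatty acids off membrane lipids. Plant genomes hold families of patatin-like genes, and in Arabidopsis patatin-like protein 2 is induced by pathogens and takes part in supplying fatty acids for oxylipins, a class of compounds that includes jasmonate. Free polyunsaturated fatty acids are the substrate of lipoxygenases, and allene oxide synthase and allene oxide cyclase then lead towards jasmonate.

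The 7 genes described here are those of the authors' deposited table of differing genes that carry the description patatin-like protein 2, out of 45022 genes with an expression value. They were therefore chosen by their measured difference between the 2 libraries, and that difference is described below and not tested. The genes fall into 2 identifier clusters, 2 genes numbered Pbr0087xx (Pbr008727 and Pbr008733) and 4 numbered Pbr0123xx (Pbr012332, Pbr012334, Pbr012337 and Pbr012339), with the assembled locus XLOC_013483 beside them. Patatin-like genes outside the table carry no description and were not analysed here, so nothing follows for the whole family.

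RNA came from fruit tissue surrounding wounds in pears (Pyrus x bretschneideri, the Chinese white pear), held for 3 days at 20 °C. One group was given sterile distilled water as the control and the other Meyerozyma guilliermondii, a yeast used against fruit decay. Each group is 1 library, so no value has a replicate check, the number of fruit per library is not given in the sources used here, and no standard deviation or p-value was computed. The levels are FPKM, the authors' fragment counts scaled to gene length and library size. Only the 381 genes of the authors' table carry descriptions, so marker genes for the fruit tissue of the labels could be looked up only there. Name patterns for fruit flesh matched 6 of the 381 genes, 1 higher and 5 lower with the yeast, those for seed matched 3, 1 higher and 2 lower, and those for green tissue and for fungal hits matched 0. The part of tissue make-up in the results below was not tested. Within a piece of tissue, fewer cells of a type and less RNA per cell cannot be told apart.

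All 7 patatin-like genes were lower with the yeast. Their FPKM values came to 48.0 in sum with water and only 4.59 with the yeast, 10.4-fold lower. In the yeast library 5 of the 7 were listed at 0 FPKM, and the 2 that remained above 0 were the 2 most abundant in the water library. Pbr008727 supplied 76.4% of the summed level with water and 96.0% with the yeast. The table's listing of 238 of 45022 genes as lower (0.529%) is the background to these 7, and since the table was used to choose them nothing is read from the comparison.

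**Figure D1:**
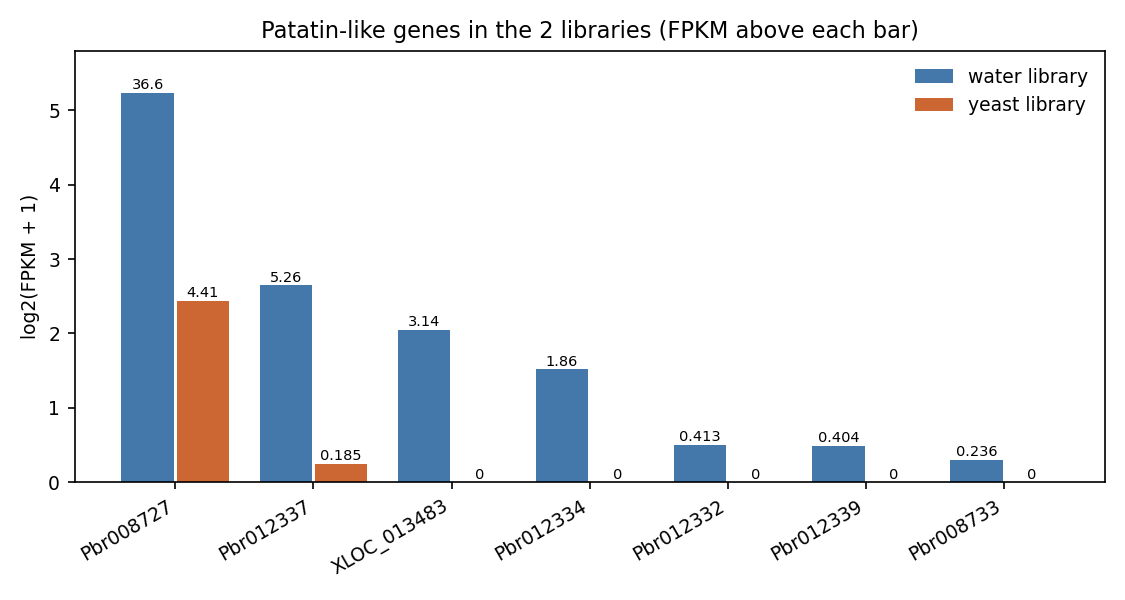
Level of each patatin-like gene, blue for the water library and orange for the yeast library, 1 library each, as log2(FPKM + 1) with the FPKM printed above each bar. The genes are ordered by their water level, from 36.6 FPKM for Pbr008727 to 0.236 FPKM for Pbr008733, and 5 have no orange bar because they are listed at 0.

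Pbr008727 measured 36.6 FPKM with water and 4.41 FPKM after yeast treatment. By level it ranked 3474th of 45022 genes with water and 14462nd with the yeast. In the authors' deposited table its log2 fold change was -2.997 with an adjusted p of 0.00267. Among the deposited values this was the smallest fold change of the 7 and the nearest to the smallest absolute value in that table, 2.66. For the 5 genes listed at 0 those values depend on what was added before the ratio, so the ranking is not one of effect size. On the log2(FPKM + 1) scale the change of Pbr008727, -2.80, was the largest of the 7. The cluster partner of Pbr008727, Pbr008733, stood at 0.236 FPKM with water and was listed at 0 with the yeast. The partners were thus the highest and the lowest of the 7 genes in the water library, 156-fold apart in FPKM.

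The 4 genes of the Pbr0123xx cluster summed to 7.94 FPKM with water and 0.185 FPKM with the yeast, 43.0-fold lower, beside 8.36-fold for the sums of the Pbr0087xx pair. The whole yeast sum came from Pbr012337 here and from Pbr008727 in the pair. The sums therefore do not give a fold shared by the genes of a cluster. Pbr012337 was the most abundant of the 4, with 5.26 FPKM in control fruit and 0.185 FPKM in treated fruit. It was the only gene of this cluster above 0 with the yeast. Pbr012334 stood at 1.86 FPKM with water, Pbr012332 at 0.413 FPKM and Pbr012339 at 0.404 FPKM, and all 3 were listed at 0 with the yeast. The authors' deposited log2 fold changes in this cluster ran from -4.86 for Pbr012337 to -10.09 for Pbr012334. The adjusted p-values of that table ran from 7.08e-08 for Pbr012334 to 0.00379 for Pbr012339. The last was the largest of the 7, beside a largest value of 0.00994 in the table. With 1 library per group, those p-values cannot measure variation between fruit. Among the members listed at 0 with the yeast they were smaller the more water reads a gene had.

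The assembled locus XLOC_013483 had 3.14 FPKM with water and was listed at 0 with the yeast. Its deposited log2 fold change of -10.70, with an adjusted p of 3.47e-09, was the 5th lowest of the 238 lower genes of the authors' deposited table. The locus was at 0 with the yeast, so that value follows its water reads and is not a size of effect. It differed from the other 6 in its annotation: it had no Pfam domain and its best hits were patatin-like proteins of apple and rice, whereas the 6 Pbr genes carried the patatin-like phospholipase domain, a best hit in pear and a Swiss-Prot hit to Arabidopsis PLP2. All 7 shared the gene ontology terms for lipid catabolism and hydrolase activity and the KOG class of lipid transport and metabolism.

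The deposited log2 values also implied whole numbers of reads for these genes. These implied reads need not be the counts from which the FPKM were made. Outside the 7, Pbr040196 was listed at 0 FPKM in the yeast library but had 3 implied yeast reads. Implied reads per FPKM could also differ between libraries, as for Pbr033574, at 186 (water) and 130 (yeast). They were 69.5 and 69.2 for Pbr008727, and 92.7 and 86.6 for Pbr012337. Of 84 genes listed as lower and at 0 FPKM with the yeast, 65 had log2 values that followed whole numbers of water reads. Of 40 listed as higher and at 0 FPKM with water, 21 followed whole numbers of yeast reads. Each read was worth 7.83 units with water and 8.18 units with the yeast, with 1 unit added to both sides before the ratio was taken. By the ratio of these units the water library was 1.05 times as deep as the other. With these units, 346 of the 381 deposited log2 values (90.8%) matched a pair of whole reads, as did all 7 patatin-like genes. The unit was taken as 1 read, the largest that gives whole numbers.

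Pbr008727 had 2547 implied reads with water and 305 with the yeast. Scaled for depth this was 7.99-fold lower, with a 95% interval of 7.09 to 9.03 (exact Clopper-Pearson limits; all intervals and floors here cover counting error only). Pbr012337 had 488 and 16 implied reads, 29.2-fold lower with an interval of 17.8 to 51.5. The 2 intervals do not overlap, a statement about reads in these 2 libraries and not about fruit. For Pbr008727 the next larger pair of whole numbers that matched, 18792 and 2251 reads, would mean 513 reads per FPKM in the water library, outside the 67.8 to 127 of the 7 genes. That range itself rests on the smallest pairs, Pbr008727 included, so it is not an independent check. The lipoxygenase gene Pbr004541, outside the 7, had 292.

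The 5 genes at 0 FPKM in the yeast library also had 0 yeast reads. This is not so for every such gene: of 84 genes of the table listed as lower and at 0 FPKM with the yeast, 19 had yeast reads above 0. With water XLOC_013483 had 213 reads, Pbr012334 139, Pbr012332 37, Pbr008733 30 and Pbr012339 29. Against a floor of 3 reads in the yeast library, they were at least 67.9-fold, 44.3-fold, 11.8-fold, 9.57-fold and 9.25-fold lower. The floor is a fixed convention and not a confidence limit. The exact two-sided 95% lower limits on the fold were smaller, 54.8, 35.6, 9.12, 7.31 and 7.05 in the same order. Both follow the read numbers, so the 3 genes near 30 reads cannot show a larger bound at this depth. The deposited log2 fold changes of these 5 genes depend on the unit added, and are not sizes of effect.

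**Figure D2:**
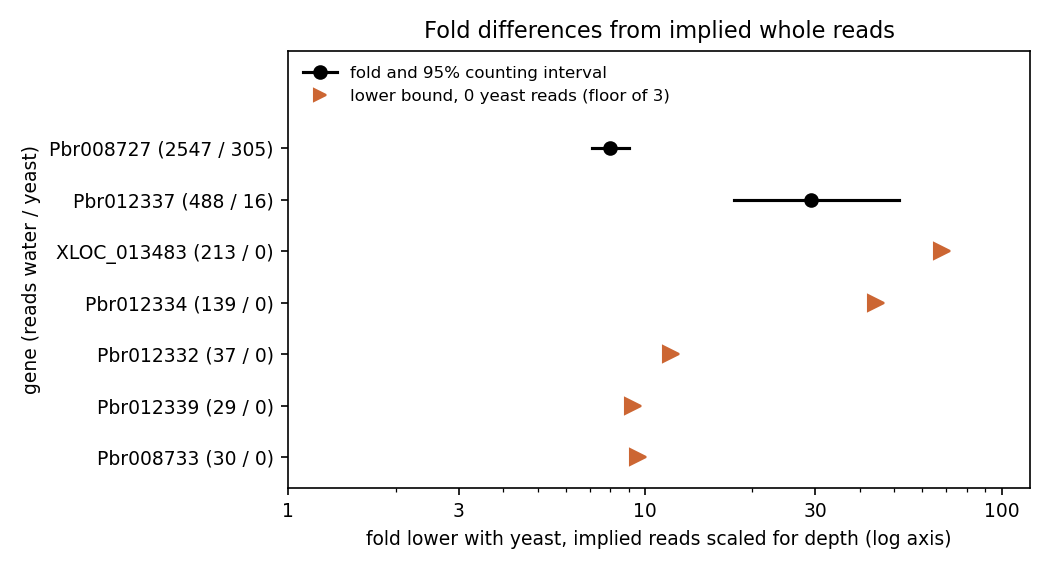
Fold by which each patatin-like gene was lower with the yeast, on a log axis, from the reads implied by the authors' log2 values (water / yeast beside each name) and scaled for depth. Black points with bars give the fold and its 95% counting interval, and orange triangles the bound against a floor of 3 reads for genes with 0 yeast reads, from 9.25-fold for Pbr012339 to 67.9-fold for XLOC_013483.

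The levels in the water library were set against the counting error of the implied reads, scaled to FPKM gene by gene. This takes FPKM as proportional to those reads, which does not hold for every gene, as given above. The intervals therefore leave out any other error of the FPKM. The 95% Poisson interval was 35.2 to 38.1 FPKM for Pbr008727, 4.81 to 5.75 for Pbr012337, 2.73 to 3.59 for XLOC_013483 and 1.56 to 2.20 for Pbr012334, with no overlap. Pbr012332 (0.291 to 0.569 FPKM), Pbr012339 (0.271 to 0.581) and Pbr008733 (0.159 to 0.336) had overlapping intervals. Taken in pairs, the FPKM of Pbr012332 was 1.75 times that of Pbr008733, with an exact 95% interval of 1.05 to 2.94. The ratio of Pbr012339 to Pbr008733 was 1.72 (0.994 to 2.96) and that of Pbr012332 to Pbr012339 1.02 (0.611 to 1.72), both with intervals that include equal levels. Reads per FPKM, which rise with the length over which a gene is counted, were 127 for Pbr008733 and between 67.8 and 92.7 for the other 6 genes. Near-identical copies of a family may compete for the same reads, and the counting rule used for such reads is not given in the sources used here.

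On the log2(FPKM + 1) scale, 4 of the 7 genes had at least 1 FPKM in either library, and all 4 were at least 2-fold lower with the yeast, at -2.80 for Pbr008727, -2.40 for Pbr012337, -2.05 for XLOC_013483 and -1.52 for Pbr012334. Of all 22603 genes at that level 678 (3.00%) were at least 2-fold lower, and again the contrast had been used to choose the members. The other 3 genes lay below 1 FPKM in both libraries, with ratios between -0.31 and -0.50 that the added 1 FPKM keeps small. The median over all 7 genes, those 3 included, was -1.52. Over all genes with at least 1 FPKM it was 0.01, a set filtered by level as the 7 were not.

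**Figure D3:**
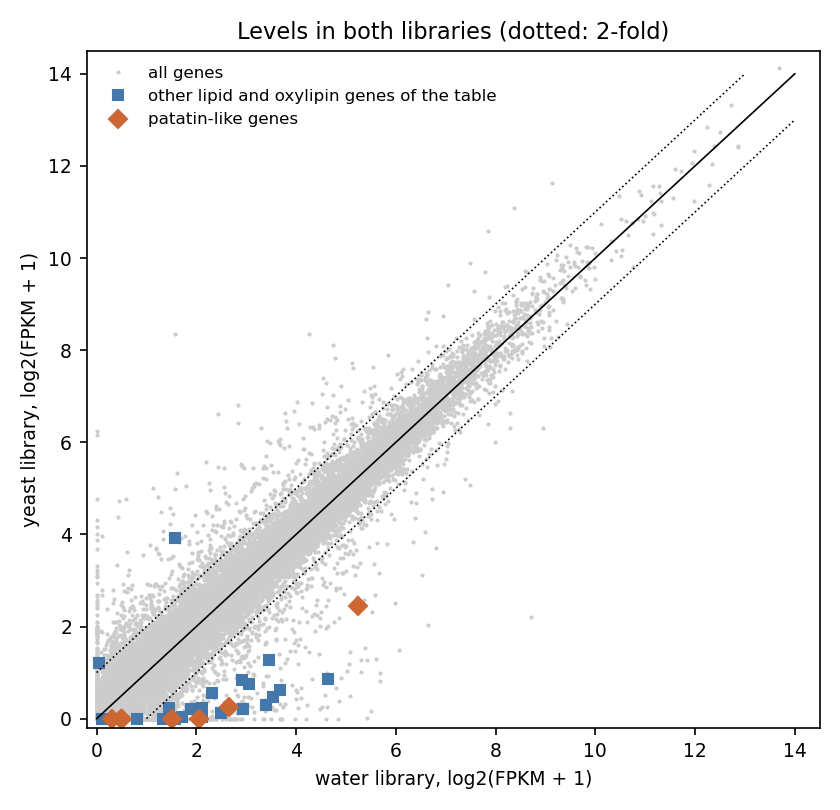
Level of every gene, water library on the x axis and yeast library on the y axis, both as log2(FPKM + 1), with the line of equal levels and dotted lines at 2-fold. Orange diamonds are the 7 patatin-like genes, those at 0 with the yeast lying on the x axis, and blue squares are 21 other genes of lipid and jasmonate lists from the authors' table, 19 of them lower with the yeast.

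Genes next to the clusters by identifier were taken with the members left out, and were otherwise not chosen by any value. No patatin-like gene of the authors' table could therefore be among them. Those left mostly lay close together in the 2 libraries. Within 10 numbers of a member there were 48 other genes. Of these, 20 were at 0 FPKM in both libraries, which fixes their ratio, and another 20 reached 1 FPKM in either library. None of the 48 was in the authors' table. That table holds only 381 of all 45022 genes, so their absence from it is not read as a result. Only 1 lay past 2-fold on the log2(FPKM + 1) scale, Pbr008725, at 0.273 FPKM with water and 1.94 FPKM with the yeast, higher rather than lower. Past 2-fold in either direction were 3.17% of all 45022 genes. With a pseudocount of 0.1 FPKM in place of 1, which gives low values more weight, 5 of the 48 neighbours lay past 2-fold, Pbr008725 and 4 genes between Pbr008727 and Pbr008733, of which 3 were lower. At that pseudocount 9.86% of all 45022 genes lay past 2-fold in either direction. Identifier order was taken as a name, since no gene positions were used here.

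Between members of the Pbr0123xx cluster, Pbr012333 had 2.19 FPKM in control fruit and 1.90 FPKM in treated fruit, a level between those of Pbr012334 and XLOC_013483 in the water library. Pbr012335 and Pbr012338 were listed at 0 in both libraries. Between Pbr008727 and Pbr008733 there were 5 genes, all below 1 FPKM in both. Pbr008729 stood at 0.745 FPKM in control and 0.223 in treated fruit, Pbr008730 at 0.184 and Pbr008731 at 0.338 with water and listed at 0 with the yeast, Pbr008732 at 0.156 with the yeast and listed at 0 with water, and Pbr008728 at 0 in both. These genes carry no description in the files, their reads could not be recovered, and Pbr008726, next to Pbr008727 on the other side, was level at 67.7 and 67.3 FPKM.

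**Figure D4:**
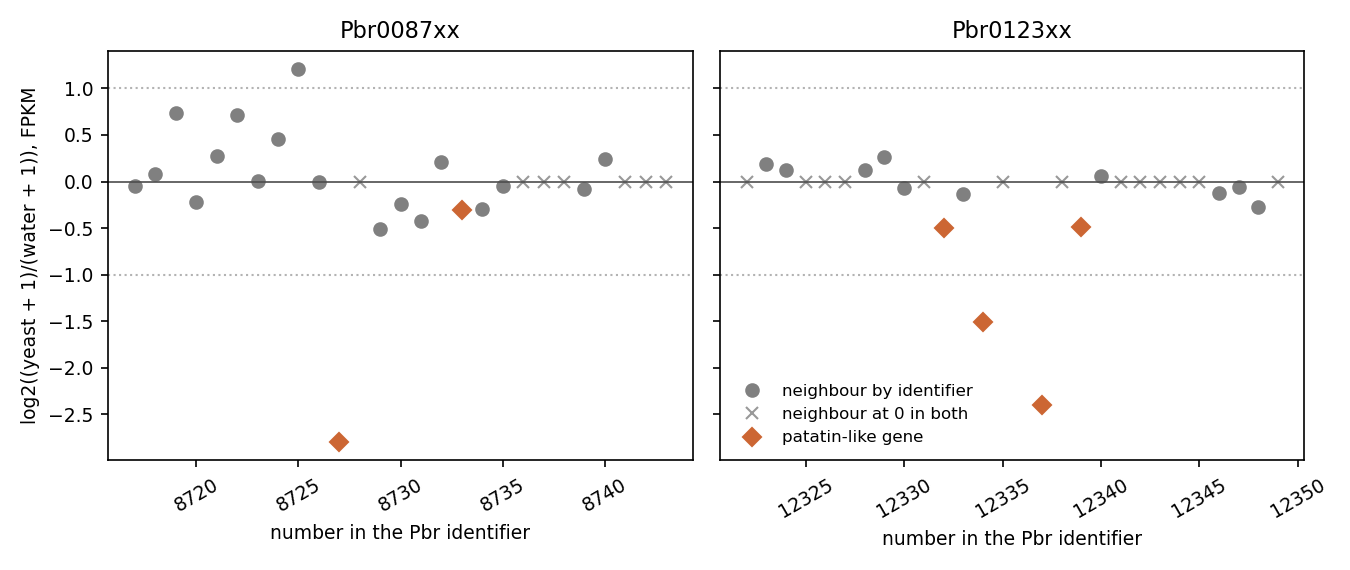
Difference between the libraries, log2((yeast + 1)/(water + 1)) in FPKM, against the number in the gene identifier for the Pbr0087xx (left) and Pbr0123xx (right) clusters, with dotted lines at 2-fold. Orange diamonds are patatin-like genes, grey points their neighbours and crosses neighbours at 0 in both libraries, and only Pbr008725 among the neighbours lies past 2-fold, at 1.21.

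In the authors' deposited table the 3 other lipases, the 1 lipoxygenase and the 3 allene oxide enzymes were all lower with the yeast. The lists also took in jasmonate response, fatty acid desaturation, synthesis and activation, and lipid transfer. They were chosen with earlier results of these data known, so nothing on a pathway is read from their counts. Together they matched 27 genes other than the patatins, 3 higher and 24 lower, beside 62.5% lower over all 381 genes of the table. Of the 27, 6 were caught through shared names (CYP749A22-like cytochromes and tropinone or salutaridine reductases), and 2 higher and 19 lower were left without them. Those caught included Pbr030004 (1721 water and 16 yeast reads), Pbr030005 (372 and 4) and XLOC_008915 (292 and 3), which are CYP749A22-like, the tropinone reductase homologue Pbr035872 (228 and 13) and, on the higher side, the salutaridine reductase-like Pbr011031 (43 and 429). Members of these pathways outside the table carry no description and could not be counted. The lists of glycerolipid synthesis, of cutin and wax, and of fungal hits matched no gene of the table.

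At the step before lipid cutting stand the omega-3 fatty acid desaturases of the chloroplast, which make the linolenic acid that jasmonate synthesis starts from. Whether the patatin-like genes of these data act in that route was not tested. Pbr021630 had 10.01 FPKM in the control fruit and 1.42 FPKM in treated fruit (816 and 115 reads, 6.79-fold lower, interval 5.58 to 8.32). Pbr010914 stood at 4.65 and 0.0955 FPKM (396 and 8 reads, 47.4-fold lower, interval 23.8 to 110). The fatty acid desaturase 4 gene Pbr004162, whose Arabidopsis relative acts on a chloroplast phospholipid, went the other way. Pbr004162 had 0.0347 FPKM in control fruit and 1.30 FPKM in treated fruit, with 1 and 39 implied reads. Its read ratio, 40.8-fold higher after scaling for depth, has an interval of 6.90 to 1651 and is poorly fixed at this depth.

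The table held 3 lipases of other families, all lower with the yeast and all below 5 FPKM. XLOC_000012, described as the putative lipase ROG1, stood at 3.96 and 0.462 FPKM, with 218 and 24 implied reads. Pbr035434 had a Swiss-Prot hit to phospholipase A1-IIbeta, an enzyme that frees fatty acids from phospholipids. This gene stood at 1.73 and 0.165 FPKM, with 129 and 10 implied reads. Pbr040196, with a hit to phospholipase A1-IIalpha, stood at 0.764 FPKM with water and was listed at 0 with the yeast, although 3 yeast reads stand beside its 73 water reads. Against these, Pbr008727 alone had more reads in the water library (2547) than the 3 other lipases together (420).

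In the general order of that route lipoxygenases follow lipases. The lipoxygenase gene of the table, Pbr004541, was at 0.0822 FPKM with water. It had 24 implied water reads and 0 yeast reads. The allene oxide synthase Pbr006205 had 133 and 15 reads (8.48-fold lower, interval 4.96 to 15.6), its neighbour Pbr006204 77 and 4 reads (18.4-fold lower, interval 6.91 to 69.3), and the allene oxide cyclase Pbr030638 39 and 0 reads (at least 12.4-fold lower). The fold of Pbr008727, 7.99, lay within the intervals of both synthases. Of the 7 genes of the jasmonate response list, all lower, the TIFY 10B-like repressor gene Pbr039229 had 680 and 24 reads (27.1-fold lower, interval 18.1 to 42.6) and the MYC2-like factor Pbr037113 609 and 27 reads (21.6-fold lower, interval 14.7 to 33.0), both overlapping the interval of Pbr012337 and lying above that of Pbr008727. The TIFY 10B-like gene Pbr040357, listed at 0 FPKM with the yeast, had 1 yeast read beside 56 with water. The CYP94C1-like gene Pbr029505, of a family that oxidises active jasmonate, had 207 water and 2 yeast reads, 99.0-fold lower with an interval of 27.1 to 823.

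The acyl-activating enzyme 12 genes, of the family that joins carboxylic acids to coenzyme A, had the most water reads after Pbr008727 among the 21 list genes not caught through shared names. Pbr033574 had 1969 and 49 reads (38.4-fold lower, interval 29.0 to 52.1), Pbr008461 1931 and 42 reads (44.0-fold lower) and Pbr008460 1304 and 29 reads (43.0-fold lower). In FPKM they stood between 6.62 and 10.6 with water and between 0.162 and 0.377 with the yeast, above Pbr012337 and below Pbr008727 with water. The lipid transfer list matched 1 gene, XLOC_001006, which was higher, at 1.98 FPKM with water and 14.1 FPKM with the yeast (56 and 369 reads).

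**Figure D5:**
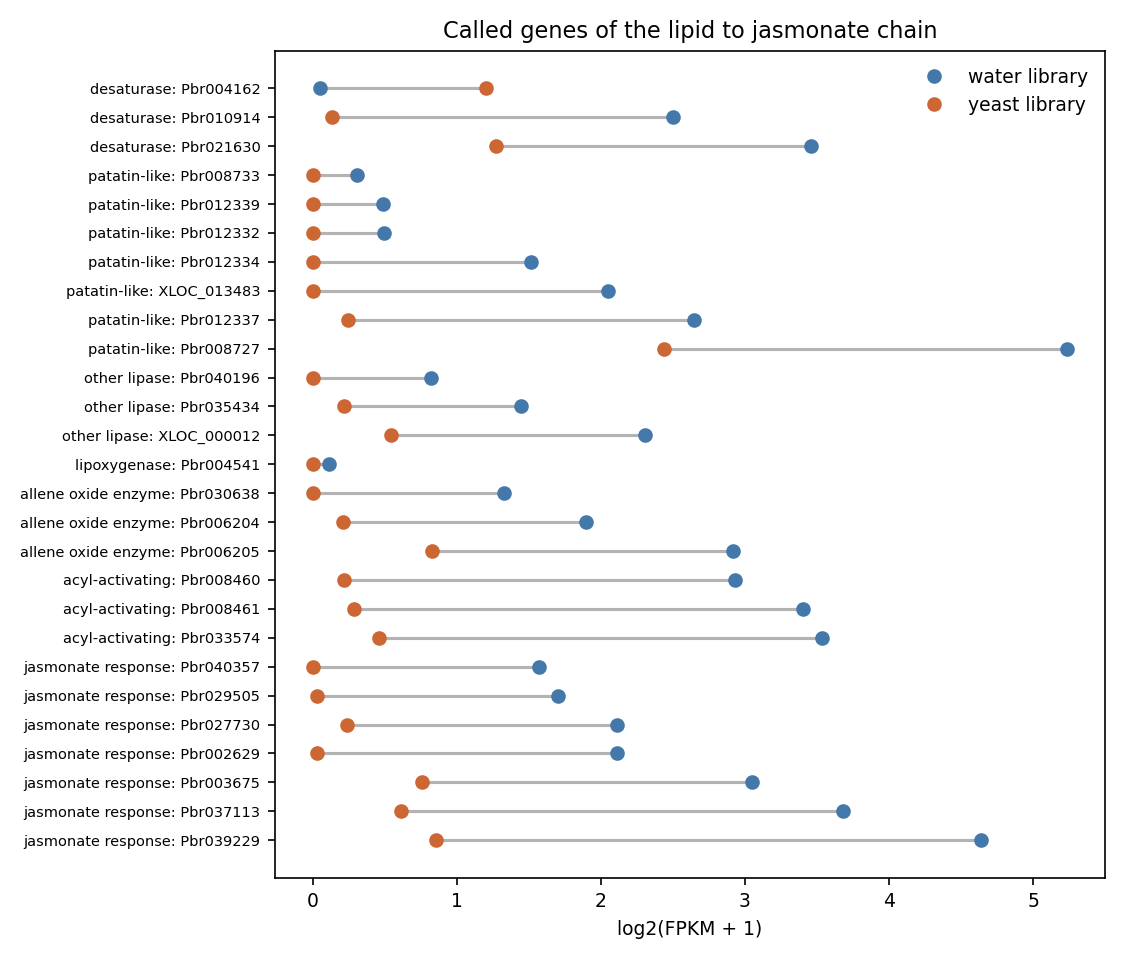
Level of each described gene from fatty acid desaturation to the jasmonate response in the water (blue) and yeast (orange) libraries, as log2(FPKM + 1), for genes of the authors' table without those caught through shared names. The yeast point lies left of the water point in every line except the desaturase Pbr004162 (0.0347 and 1.30 FPKM). The lipid transfer gene XLOC_001006, higher with the yeast (1.98 and 14.1 FPKM), is not drawn, while the acyl-activating enzyme genes are.

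By the deposited KOG class, 17 other genes of the table belonged to lipid transport and metabolism, 3 higher and 14 lower, a grouping added after the values were known. The 3 higher genes were 4-coumarate--CoA ligase 2-like genes of phenylpropanoid synthesis (Pbr024635, 0.161 and 2.58 FPKM, and Pbr001283, 0.412 and 3.00 FPKM, water first) and the PNS1-like gene Pbr016858 (listed at 0, and 0.509). Of the 14 lower genes 9 were cytochrome P450 genes that carry a further KOG class, and none of the higher genes did. In the lipid class alone 3 genes were higher and 5 lower, beside 62.5% lower over the whole table. The 5 were both phospholipase A1 genes and the 3 acyl-activating enzyme 12 genes given above.

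Among described genes of the table, those nearest to a patatin-like gene were found by their distance over log2(FPKM + 1) in the 2 libraries. Closest to Pbr008727 were the tryptophan aminotransferase-related gene Pbr025676 (33.1 FPKM with water and 4.54 with the yeast, distance 0.15), the SRG1-like dioxygenase gene Pbr021636 (40.0 and 4.96, distance 0.19) and the ABC transporter G family gene Pbr019124 (26.1 and 3.27, distance 0.58). Closest to Pbr012337 were the OXI1-like protein kinase gene Pbr031383 (5.52 and 0.183, distance 0.06), the probable mannitol dehydrogenase gene Pbr004679 (5.54 and 0.108, distance 0.12) and the flavonol synthase-like locus XLOC_037744 (5.70 and 0.136, distance 0.12). Closest to XLOC_013483 were Pbr001067 (3.18 FPKM with water, distance 0.01) and Pbr033753 (3.25, distance 0.04), both with hits to VQ motif-containing protein 29, and the bHLH92-like factor Pbr040944 (3.06, distance 0.03), all 3 listed at 0 with the yeast. With 2 libraries such nearness says only that 2 levels are alike.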

How the data were processed

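Total RNA of 1 library per group was sequenced. The authors deposited FPKM values for 45022 genes and a table of their comparison with log2 fold changes and adjusted p-values (FDR) for 381 genes, per the file headers. Per the submitters' processing notes, Bowtie 0.12.2 was among the tools; for the counter, the genome build, the annotation and the comparison tool, the names are not given in the sources used. Ratios were log2((yeast + 1)/(water + 1)) of FPKM, with a 2-fold rule over genes that reached 1 FPKM in a library.

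Reads were recovered from the deposited log2 values, an addition made after seeing the data. Steps were fitted to genes at 0 FPKM in 1 library (65 of 84 on whole reads within 0.001 read for water, 21 of 40 for yeast). For each gene the smallest pair of whole reads was then taken that gave its log2 value within a relative tolerance of 1e-08, with a product of at most 1000000. Intervals are exact for the implied reads, at 95%. Both steps were tested on simulated data, in which, unlike the deposited values, every value used for the fit lay on whole reads.

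Members, lists and naming rule were chosen with earlier results of these data known. Named were all members, every gene of the lipase, lipoxygenase and oxylipin lists, the extremes of the other lists and the 3 nearest genes per leading member; Pbr021630, the KOG genes and the neighbours within 2-fold were named after their values were seen. No identifier matched the RefSeq gene table, so no sequence or position is printed. Python 3.11.15, pandas 2.3.3, NumPy 2.4.6 and SciPy 1.17.1 were used.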

Additional observations from a re-analysis of the deposited data

How the results depend on the processing

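The direction of the 7 genes carries no information on stability: they were chosen from the authors' table, 5 are listed at 0 with the yeast, and a pseudocount cannot turn a sign. The size depends on the scale. The median log2 ratio of -1.52 became -2.24 with a pseudocount of 0.5 FPKM, -3.03 with 0.1 FPKM, -3.56 from implied reads with a floor of 3 (an alternative added after seeing the data) and -7.88 in the authors' deposited values, which add 1 unit worth less than a read. Rescaling the yeast values cannot move a gene listed at 0 with the yeast, and the median falls on such a gene. Of the 2 genes above 0, Pbr008727 went from -2.80 to -2.89 with the FPKM rescaled to the same sum and -2.80 centred on the median, and Pbr012337 from -2.40 to -2.42 and -2.40. Of the members, 4 were at least 2-fold lower, 2 when at least 5 FPKM was required, since only 2 reach it, and 7 by the authors' log2 values with no filter (added). Neighbours past 2-fold were 1, but 5 with a pseudocount of 0.1 FPKM, 2 higher and 3 lower, and the 3 lower ones, Pbr008729, Pbr008730 and Pbr008731, lie between Pbr008727 and Pbr008733 by identifier. The list counts stayed within 1.5 times throughout. No paired analysis was possible because each group is 1 library, and for the same reason no library could be left out. Depth limits the 3 members with 29 to 37 water reads.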
